A study of Mus musculus with 6 samples.

Results

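The calcineurin and NFAT genes are 10 genes of one calcium-driven signalling route, taken from the 24411 gene symbols counted in C2C12 myotubes. They are the calcineurin subunit genes Ppp3ca, Ppp3cb and Ppp3r1, the transcription factor genes Nfatc1, Nfatc2, Nfatc3, Nfatc4 and Nfat5, and the calcineurin regulator genes Rcan1 and Rcan2. The set was chosen by gene name as a pathway, with the Sardomozide and DMSO values of these same libraries already known. The difference between the groups is therefore given for the members as a description, without a p. All 10 passed the filter on low counts. C2C12 is an established mouse muscle precursor line, and its cells merge into multinucleated fibres in culture. Wild-type myotubes that had finished differentiating received Sardomozide at 10 µM (written 10um in the labels), an inhibitor of the polyamine enzyme encoded by Amd1, for 72 h, and 3 libraries were made from them. The other 3 libraries came from wild-type myotubes given the solvent DMSO for 72 h. Whether replicates were separate cultures is not stated, so a p-value here reflects the spread among the libraries alone, and that spread may be technical.

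Calcineurin is a phosphatase made of a catalytic A subunit and a calcium-binding B subunit, and calmodulin switches it on when calcium rises. It removes phosphates from the NFAT factors, which then enter the nucleus, while kinases such as DYRK and casein kinase 1 send them out again. In muscle the route is known for fibre growth, fusion and the slow-fibre gene programme, and Rcan1 is a classic readout because NFAT binds in front of an inner start of the gene and the protein restrains calcineurin in turn. NFAT5 shares the DNA-binding domain but answers to osmotic stress without calcineurin.

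The mouse Rcan1 gene has 2 annotated starts in the RefSeq table used here, and the stretches in front of them are shown because the inner one is the textbook NFAT-responsive promoter. The Rcan2 and Nfatc2 stretches are shown because these genes had the largest differences between the groups. Each is 250 bases long, ends at the base before the start and is written 5′ to 3′ on the gene's strand (RefSeq, GRCm38.p6). Capitals mark the NFAT core GGAAA on either strand (its complement reads TTTCC) and TGANTCA, the motif of AP-1, a frequent NFAT partner.
Rcan1 outer start, chr16:92466170-92466419, minus strand: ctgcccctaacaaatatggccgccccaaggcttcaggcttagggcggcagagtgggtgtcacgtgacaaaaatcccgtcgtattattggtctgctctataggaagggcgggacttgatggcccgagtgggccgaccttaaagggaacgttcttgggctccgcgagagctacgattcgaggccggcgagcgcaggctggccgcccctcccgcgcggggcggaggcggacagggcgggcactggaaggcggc
Rcan1 inner start, chr16:92400079-92400328, minus strand: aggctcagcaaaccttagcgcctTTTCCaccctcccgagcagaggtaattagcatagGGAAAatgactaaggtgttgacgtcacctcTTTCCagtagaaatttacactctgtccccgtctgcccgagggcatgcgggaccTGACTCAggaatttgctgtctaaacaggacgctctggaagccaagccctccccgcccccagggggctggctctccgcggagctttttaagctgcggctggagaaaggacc
Rcan2 first start, chr17:43801102-43801351, plus strand: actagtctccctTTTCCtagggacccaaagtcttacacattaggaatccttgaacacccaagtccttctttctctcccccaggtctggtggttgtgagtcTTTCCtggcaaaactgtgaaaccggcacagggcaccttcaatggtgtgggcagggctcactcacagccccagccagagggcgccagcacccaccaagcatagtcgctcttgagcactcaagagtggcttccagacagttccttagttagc
Nfatc2 first start, chr2:168601658-168601907, minus strand: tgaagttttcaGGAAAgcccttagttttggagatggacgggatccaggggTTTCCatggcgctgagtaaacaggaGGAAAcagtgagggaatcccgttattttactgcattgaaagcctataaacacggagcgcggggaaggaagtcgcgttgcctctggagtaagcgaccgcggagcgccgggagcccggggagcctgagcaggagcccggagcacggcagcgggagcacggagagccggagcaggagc

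The inner Rcan1 stretch held 3 GGAAA cores, at 227, 193 and 163 bases before the start, and 1 TGANTCA motif at 110 bases, with no overlap between them. The outer stretch held neither. Of 32851 promoter stretches of the same length in the table, 6.39% held at least 3 cores, 6.75% held TGANTCA, and 0.457% held both. The first Nfatc2 stretch held 3 cores and the first Rcan2 stretch 2, and 21.4% of all stretches held at least 2. Stretches of members with smaller differences held as many, with 3 for Nfatc4 and for Ppp3cb and 2 for Nfat5. Those of Nfatc3 held 1 and 0, and that of Ppp3r1 held 0. Nfatc2 has a second start in the table, whose stretch held 1 core, at 187 bases, and no TGANTCA. Rcan2 has 2 further starts whose stretches held no core, and the stretch of the third start held 1 TGANTCA motif, at 25 bases. Of the 13 stretches scanned for 8 of the 10 members, 8 held a core, against 55.6% of all stretches. Such matches describe letters and are not evidence of binding. The deposited counts add up all transcripts of a gene, so transcripts from the inner and the outer start of Rcan1 could not be separated.

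Library totals ran from 30820423 to 36709804 counts with Sardomozide and from 25496323 to 32108033 with DMSO. The first principal component, with 39.8% of the variance, separated the groups. The second, with 16.5%, set DMSO replicate 1 (19.2) apart from DMSO replicates 2 and 3 (−8.72 and −12.5). The labels give the cell type as myoblasts and the titles as myotubes. The 7 listed myotube markers, Acta1, Ckm and Myog among them, summed to 16520 to 17930 CPM (read counts scaled to library size, with TMM factors) with Sardomozide and 16040 to 17190 CPM with DMSO. Of these only Myog passed the test, as a rise. NFAT proteins are best known from T cells, but 3 of 4 T-cell markers (Cd3e, Cd4, Cd8a and Ptprc) had no count in any library, and their sum reached at most 0.0584 CPM. The 5 markers of undifferentiated and cycling myoblasts summed to 336 to 362 CPM with Sardomozide and 310 to 327 CPM with DMSO. Mki67 alone among the 5 passed the test, as a rise. Myf5 had a log2 fold change of −0.15 ± 0.104, and it is also on the list of NFAT targets below. Marker sums for macrophages, endothelial cells and neural cells were at most 2.53 CPM. The part of the myoblast markers in the values below was not tested. In RNA from whole cultures, fewer cells of a type and less RNA per cell cannot be told apart.

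Among the 10 members, Nfatc2 and Rcan2 were lower with Sardomozide, and Rcan1 and Ppp3cb were higher. The other 6 had log2 fold changes between −0.17 and 0.15. In edgeR's test over all 13076 genes, 4 of the 10 had an adjusted p under 0.05, 2 in each direction. Over all genes tested 16.3% did, 7.88% as higher and 8.45% as lower. The groups did not overlap for the same 4 members, while 33.5% of all genes tested showed no overlap. Since the members were chosen with this contrast known, nothing is read from these counts. The median log2 fold change of the members was 0.02, and that of all genes was −0.00082.

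**Figure D1:**
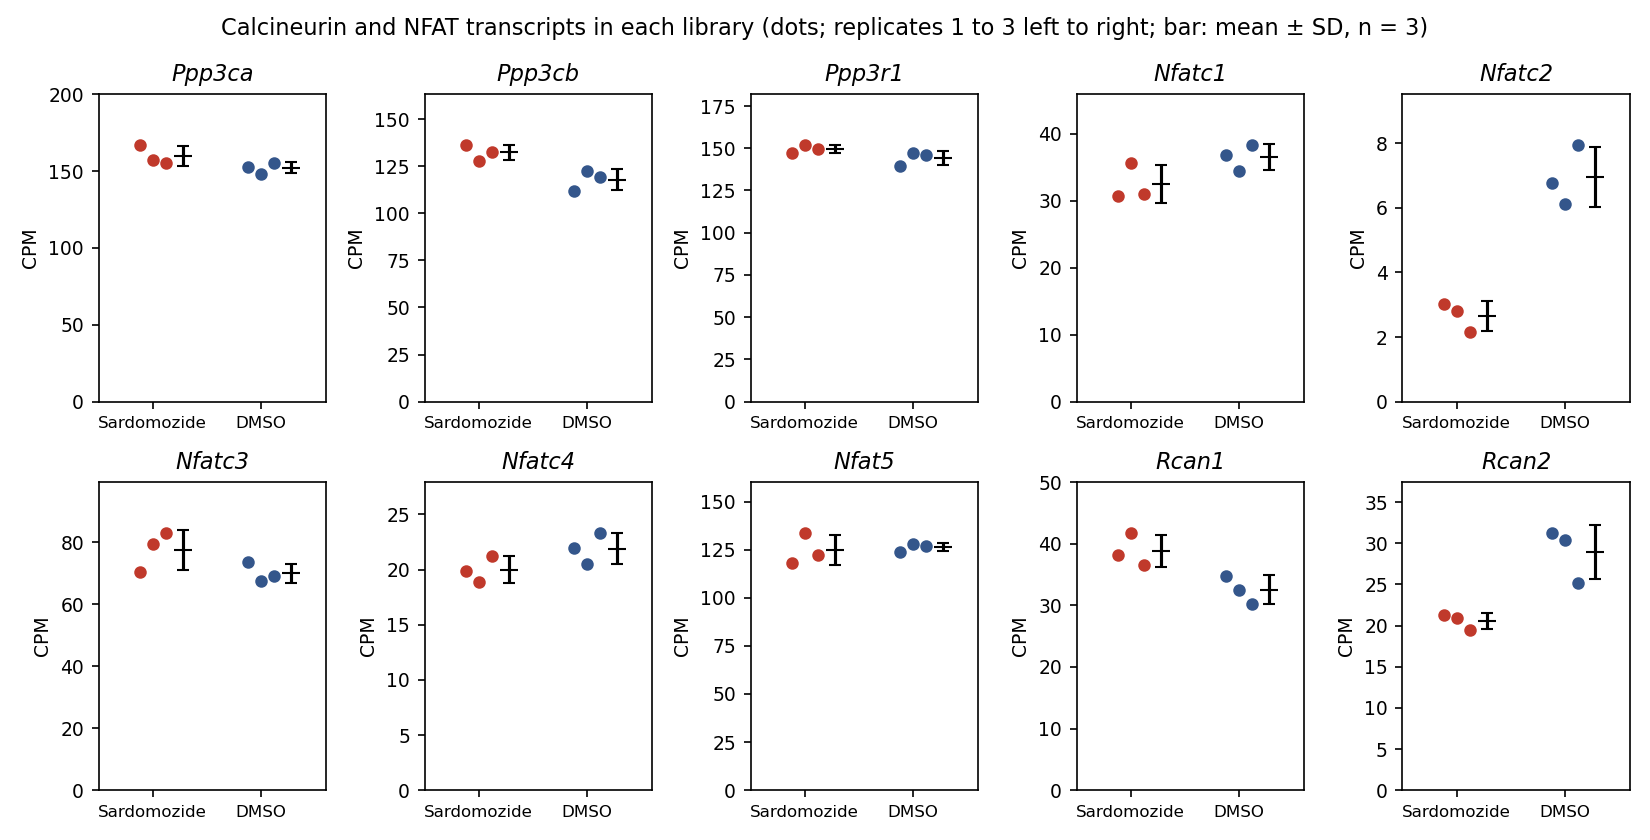
Expression of the 10 genes in CPM (vertical axes, each from 0) in the 3 Sardomozide libraries (red) and the 3 DMSO libraries (blue), with the mean and SD beside the dots (n = 3). Nfatc2 lay at 2.15 to 3.02 CPM with Sardomozide and 6.13 to 7.95 CPM with DMSO, and the groups of Rcan2, Rcan1 and Ppp3cb were also apart.

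The catalytic subunit genes come first in the route. Ppp3cb (chr14:20499364-20546573, minus strand; gene positions are from GENCODE M21, GRCm38) encodes the beta form of calcineurin A. It had 136, 128 and 133 CPM in the Sardomozide libraries, against 112, 123 and 119 CPM in the DMSO libraries. Every Sardomozide library lay above every DMSO library, with a log2 fold change of 0.17 ± 0.046 (SE), a 12.1% higher level. Ppp3cb fell short of the threshold without Sardomozide replicate 1 or 3 or DMSO replicate 1, with log2 fold changes of 0.14, 0.16 and 0.13. Ppp3ca, the alpha form and the main one of skeletal muscle, had 167, 157 and 155 CPM with Sardomozide and 153, 148 and 155 CPM with DMSO. The Ppp3ca ranges overlapped narrowly, and the log2 fold change was 0.07 ± 0.044.

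Ppp3r1 encodes the B subunit that binds calcium and is needed by either A form. It had 147, 152 and 150 CPM with Sardomozide and 139, 147 and 146 CPM with DMSO. These ranges overlapped, with a log2 fold change of 0.05 ± 0.043, and the spread between libraries (1.68% and 2.99% of the mean) was the smallest of any member with Sardomozide. In the GENCODE M21 annotation of GRCm38, 462 bases (14.3%) of Ppp3r1 exon sequence also belong to exons of Wdr92 on the same strand, so some of its reads could be shared.

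Nfatc2 (chr2:168476410-168601657, minus strand) had the largest difference of the 10. Its product takes part in myotube growth by recruiting further myoblasts. The raw counts were 110, 96 and 67 with Sardomozide and 172, 197 and 237 with DMSO, equal to 3.02, 2.80 and 2.15 CPM and to 6.77, 6.13 and 7.95 CPM. The highest Sardomozide library lay below the lowest DMSO library. Means were 2.66 ± 0.454 CPM with Sardomozide and 6.95 ± 0.922 CPM with DMSO (SD, n = 3), with a log2 fold change of −1.38 ± 0.17. The level fell by 61.6%. Nfatc2 was also the scarcest member. Counting error alone came to 12.2% of its lowest count and 6.50% of its highest, beside a spread between libraries of 17.1% with Sardomozide and 13.3% with DMSO. The log2 fold change stayed between −1.48 and −1.25 whichever library was left out.

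The other calcineurin-dependent factors differed much less. Nfatc1, the factor that follows nerve activity into the nucleus of slow fibres, had 30.7, 35.7 and 31.0 CPM with Sardomozide and 36.9, 34.4 and 38.3 CPM with DMSO. Sardomozide replicate 2 lay inside the DMSO range, and the log2 fold change was −0.17 ± 0.072. Without that library the value was −0.24, and Nfatc1 crossed the threshold. Nfatc4 had 19.9, 18.9 and 21.3 CPM with Sardomozide and 21.9, 20.5 and 23.3 CPM with DMSO. Its groups overlapped too, with a log2 fold change of −0.13 ± 0.083.

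Nfatc3, known from the earliest stages of muscle formation in mice, had the highest CPM of the 4. It reached 70.4, 79.4 and 82.9 CPM with Sardomozide and 73.5, 67.5 and 69.0 CPM with DMSO. Sardomozide replicate 1 lay within the DMSO range, and the log2 fold change was 0.15 ± 0.059. Without that library it was 0.21 and crossed the threshold, which it also did without a filter on low counts (0.15). Exons of Esrp2 on the opposite strand cover 219 bases (1.87%) of Nfatc3 exon sequence.

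Nfat5, the tonicity factor, had 118, 134 and 123 CPM with Sardomozide and 124, 128 and 127 CPM with DMSO. The Sardomozide libraries lay on both sides of the DMSO libraries, and the log2 fold change of −0.02 ± 0.048 became 0.02 without Sardomozide replicate 1.

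The regulators of calcineurin went in opposite directions. Rcan1 (chr16:92391953-92470867, minus strand) had 38.2, 41.7 and 36.6 CPM with Sardomozide, against 34.8, 32.6 and 30.2 CPM with DMSO. The lowest Sardomozide library was above the highest DMSO library. Means were 38.8 ± 2.62 CPM with Sardomozide and 32.5 ± 2.34 CPM with DMSO (SD, n = 3), a 19.5% higher level and a log2 fold change of 0.26 ± 0.07. Rcan1 fell short of the threshold without Sardomozide replicate 2 or DMSO replicate 3, with log2 fold changes of 0.20 and 0.21.

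Rcan2 (chr17:43801351-44039516, plus strand), the related gene first described in human fibroblasts as responsive to thyroid hormone, had 21.3, 20.9 and 19.5 CPM with Sardomozide, against 31.2, 30.4 and 25.2 CPM with DMSO. The groups did not overlap, and DMSO replicate 3 lay closest to the Sardomozide libraries. Means were 20.5 ± 0.959 CPM with Sardomozide and 28.9 ± 3.29 CPM with DMSO (SD, n = 3), with a log2 fold change of −0.49 ± 0.085. The level fell by 28.9%. The log2 fold change ran from −0.58 to −0.44 over the libraries left out in turn. Rcan3, the remaining family gene and not a member, had 20.3 ± 0.567 CPM with Sardomozide and 23.1 ± 0.375 CPM with DMSO and did not pass (edgeR adjusted p = 0.0943).

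Levels of different genes were compared per kb of exon, as CPM per kb. Ppp3r1 led with 46.3 ± 0.779 CPM per kb with Sardomozide and 44.7 ± 1.34 with DMSO, followed by Ppp3ca (16.0 ± 0.645 and 15.2 ± 0.358), Ppp3cb (15.02 ± 0.478 and 13.4 ± 0.623) and Rcan1 (12.6 ± 0.848 and 10.5 ± 0.757). Nfat5, Rcan2 and Nfatc3 came next in the DMSO libraries, at 6.87 ± 0.116, 6.62 ± 0.752 and 5.97 ± 0.268 CPM per kb, with overlapping neighbours. In the Sardomozide libraries Nfat5 and Nfatc3 overlapped at 6.79 ± 0.429 and 6.61 ± 0.551 CPM per kb, Rcan2 lay below Nfatc3 at 4.70 ± 0.219, and Rcan2 overlapped Nfatc1 at 4.35 ± 0.374. Nfatc1 had 4.89 ± 0.269 CPM per kb with DMSO. Nfatc4 had 3.44 ± 0.207 with Sardomozide and 3.77 ± 0.241 with DMSO. Nfatc2 was last, with 0.251 ± 0.043 CPM per kb with Sardomozide and 0.657 ± 0.0872 with DMSO.

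**Figure D2:**
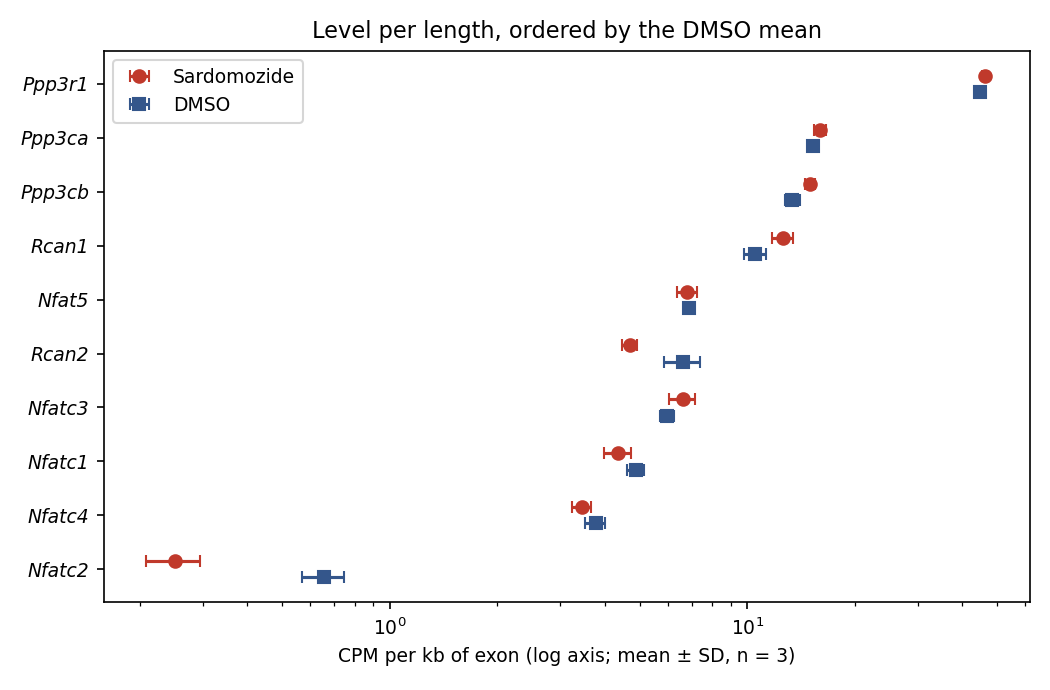
Level of the 10 genes in CPM per kb of exon (log axis, mean and SD, n = 3) in Sardomozide libraries (red circles) and DMSO libraries (blue squares), from the highest to the lowest DMSO mean. Ppp3r1 lay at 46.3 and 44.7 CPM per kb, and Nfatc2 lay below all other members at 0.251 and 0.657.

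Within families, the same values can be read as shares of the summed CPM per kb. Nfatc2 held 2.06%, 1.76% and 1.34% of the Nfatc1 to Nfatc4 sum in the Sardomozide libraries, against 4.10%, 4.01% and 4.76% in the DMSO libraries. Nfatc3 held 45.1 ± 1.71% with Sardomozide and 39.1 ± 1.54% with DMSO, Nfatc1 held 29.7 ± 2.09% and 32.0 ± 0.484%, and Nfatc4 held 23.5 ± 1.71% and 24.7 ± 0.659% (SD, n = 3). The Nfatc2 and Nfatc3 shares of the groups did not overlap. The sum over the 4 genes was 14.7 ± 0.727 CPM per kb with Sardomozide and 15.3 ± 0.72 with DMSO, a difference smaller than the spread between libraries.

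Rcan1 held 58.6%, 60.8% and 58.1% of the Rcan1 to Rcan3 sum with Sardomozide, against 49.0%, 48.0% and 48.8% with DMSO. Rcan2 held 22.1 ± 0.837% with Sardomozide and 30.5 ± 1.53% with DMSO, and Rcan3 held 18.7 ± 1.21% and 20.9 ± 1.34%. The sum was 21.2 ± 0.919 CPM per kb with Sardomozide and 21.7 ± 1.53 with DMSO. The RCAN total thus differed by less than its spread, while its make-up did not overlap between the groups for Rcan1 and Rcan2. Among the catalytic subunits, Ppp3ca held 44.4 ± 0.388% with Sardomozide and 44.2 ± 1.96% with DMSO, Ppp3cb held 41.7 ± 1.22% and 38.7 ± 0.971%, and Ppp3cc, which is abundant in testis, held 13.9 ± 1.34% and 17.1 ± 1.67%. Only the Ppp3cb shares did not overlap between the groups. The catalytic sum was 36.05 ± 1.19 CPM per kb with Sardomozide and 34.56 ± 1.37 with DMSO, and the libraries of the groups overlapped.

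**Figure D3:**
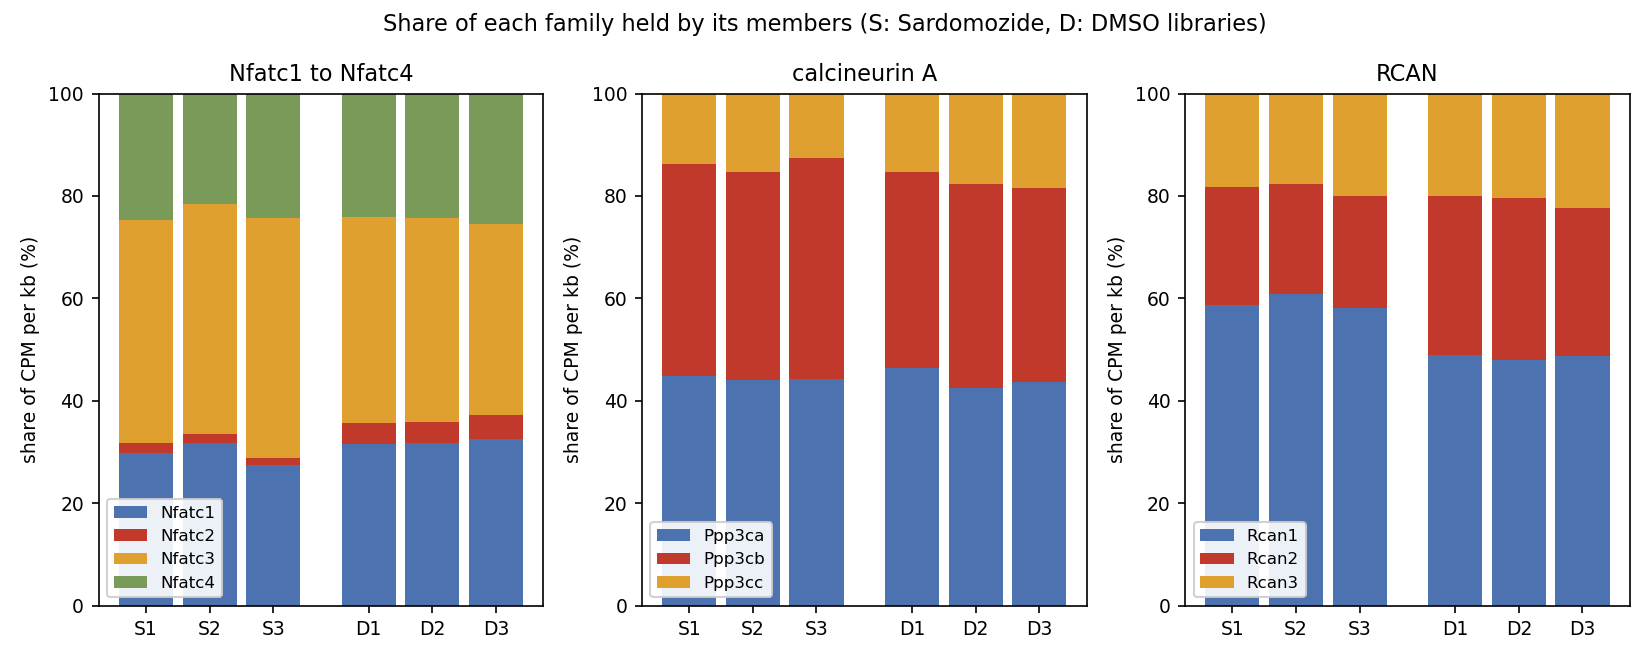
Share of each family's summed CPM per kb (vertical axis, percent) held by each gene in every library, with Sardomozide libraries S1 to S3 left of DMSO libraries D1 to D3. Rcan1 took 58.1% to 60.8% of the RCAN sum in the Sardomozide libraries and 48.0% to 49.0% in the DMSO libraries.

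Around the phosphatase, a list of 22 partner and inhibitor genes was examined, of which 18 could be tested. None rose and 4 fell (22.2% called, against 16.3% of all genes). The other 14 did not pass, and the median log2 fold change was −0.12. Of the 18, 17 had an estimate below 0, some of them by less than their standard error, Calm2 among them. The median of all genes tested was −0.00082. Nothing is read from this count, since the list was chosen with earlier results of these data known. Myoz1, which encodes calsarcin-2, a Z-disc protein that restrains calcineurin, had 4.22, 2.98 and 3.39 CPM with Sardomozide and 6.53, 8.37 and 9.59 CPM with DMSO (log2 fold change −1.21 ± 0.17, edgeR adjusted p = 5.19e-05). Its groups were well apart. Myoz2, of the same gene family and far more abundant, had 98.5 ± 18.3 CPM with Sardomozide and 110 ± 5.61 CPM with DMSO. Myoz2 did not pass (−0.15 ± 0.146, edgeR adjusted p = 0.567), though it did fall without Sardomozide replicate 1. Cmya5, the gene of the costameric calcineurin-binding protein myospryn, fell to 18.6 ± 2.18 CPM with Sardomozide, against 24.6 ± 2.37 CPM with DMSO (−0.40 ± 0.094, edgeR adjusted p = 0.00548).

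Among the other partners, Calm2 and Calm3 had log2 fold changes of −0.03 ± 0.042 and 0.02 ± 0.041 and did not pass. Atp2b4, whose plasma membrane pump binds calcineurin, fell by 10.1%, with an edgeR adjusted p of 0.0302 (log2 fold change −0.15 ± 0.047). Atp2b4 fell short of the threshold with the replicate number as a block (edgeR adjusted p = 0.0612) and without Sardomozide replicate 1 or 3 or DMSO replicate 1 or 3 (0.101, 0.0641, 0.141 and 0.138). Ppp3cc had 14.98 ± 1.59 CPM with Sardomozide and 17.7 ± 2.39 CPM with DMSO and did not pass (edgeR adjusted p = 0.13), though it did without DMSO replicate 1 (0.0485). Homer2 and Chp2 had no count in any library.

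Of 15 tested genes for NFAT kinases and nuclear transport, 2 rose, 2 fell and 11 did not pass. That made 26.7% called, against 16.3% of all genes, with a median log2 fold change of 0.01. As with the partners, the list was chosen with earlier results of these data known, and nothing is read from the share. The called genes, all of kinases, went in both directions. Dyrk1b, the muscle-rich DYRK form, had 29.97, 29.91 and 29.07 CPM with Sardomozide and 37.9, 40.0 and 36.2 CPM with DMSO (log2 fold change −0.36 ± 0.065, edgeR adjusted p = 0.000631). Dyrk1a had 161 ± 2.11 CPM with Sardomozide and 145 ± 5.85 CPM with DMSO (0.15 ± 0.044, edgeR adjusted p = 0.0186), which was lost without Sardomozide replicate 3 or DMSO replicate 1 or 3 (0.0513, 0.112 and 0.0604). Csnk1a1, a casein kinase 1 gene, rose by 12.1% (0.17 ± 0.041, edgeR adjusted p = 0.00791). Lrrk2, which encodes a kinase reported to hold NFAT in the cytoplasm, fell by 22.1% (−0.36 ± 0.06, edgeR adjusted p = 0.000314). Gsk3a and Gsk3b had log2 fold changes of 0.03 ± 0.047 and 0.07 ± 0.045 and did not pass.

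The known slow-fibre and other NFAT target genes were examined next. Of 13 tested, 1 rose, 2 fell and 10 did not pass (23.1% called, against 16.3% of all genes). Nothing is read from these counts, since this list too was chosen with earlier results of these data known. The median log2 fold change was −0.04. Ppargc1a, the coactivator gene of oxidative fibres, had 5.29, 5.87 and 5.51 CPM with Sardomozide and 2.40, 2.74 and 3.02 CPM with DMSO (log2 fold change 1.03 ± 0.17, edgeR adjusted p = 0.000227). Myoglobin (Mb) had 658, 605 and 555 CPM with Sardomozide and 702, 802 and 720 CPM with DMSO (−0.29 ± 0.063, edgeR adjusted p = 0.00635). The Mb groups did not overlap, and neither did those of Ppargc1a.

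Myh7, the slow myosin heavy chain gene, had 204, 149 and 124 CPM with Sardomozide and 326, 352 and 322 CPM with DMSO (−1.06 ± 0.21, edgeR adjusted p = 0.0395). The groups were far apart. The call was lost with the replicate number as a block (edgeR adjusted p = 0.0757) and without Sardomozide replicate 2 or DMSO replicate 1, 2 or 3 (0.119, 0.126, 0.121 and 0.118). The slow troponin genes Tnni1, Tnnc1 and Tnnt1 had log2 fold changes of −0.08 ± 0.044, 0.17 ± 0.057 and 0.06 ± 0.078 and did not pass. Tnnc1 did rise with DESeq2, without scaling factors, without a filter, and without Sardomozide replicate 3 or DMSO replicate 2. Myl2 had a log2 fold change of −0.40 ± 0.14 and did not pass either. It did fall with DESeq2, without a filter and without Sardomozide replicate 1. Il4, an NFATc2 target in mouse muscle, had no count in any library, which allows at most 0.0817 to 0.118 CPM by counting error alone.

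For Nfat5, 10 of 12 osmotic target genes could be tested. Of these, 2 rose, 3 fell and 5 did not pass (50% called, against 16.3% of all genes), with a median log2 fold change of −0.12. The share called is not read as a result, because this list was also chosen with earlier results of these data known. Slc38a2, an amino acid transporter gene, had 536 ± 21.0 CPM with Sardomozide and 435 ± 5.21 CPM with DMSO (log2 fold change 0.30 ± 0.042, edgeR adjusted p = 6.39e-05). S100a4, a calcium-binding protein gene, had 377 ± 26.5 CPM with Sardomozide and 524 ± 37.2 CPM with DMSO (−0.48 ± 0.057, edgeR adjusted p = 3.21e-05). The heat shock gene Hspa1b fell by 22.1% (edgeR adjusted p = 0.00748), and its counts are uncertain because Hspa1a is nearly identical. Hspa4l fell by 10.3% and Sgk1 rose by 12.9% (edgeR adjusted p = 0.0281 and 0.0166). Hspa4l was lost without Sardomozide replicate 3 or any DMSO library (0.0504 to 0.127), and Sgk1 without Sardomozide replicate 3 or DMSO replicate 1 or 2 (0.0598 to 0.0892). Slc5a3 and Slc6a6, the carriers of the osmolytes inositol and taurine, had log2 fold changes of 0.13 ± 0.068 and 0.03 ± 0.045 and did not pass. Akr1b3, the aldose reductase gene, was listed with no count in any library. As the annotation and the treatment of multiply matching reads were not given, this does not show that the gene was silent.

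**Figure D4:**
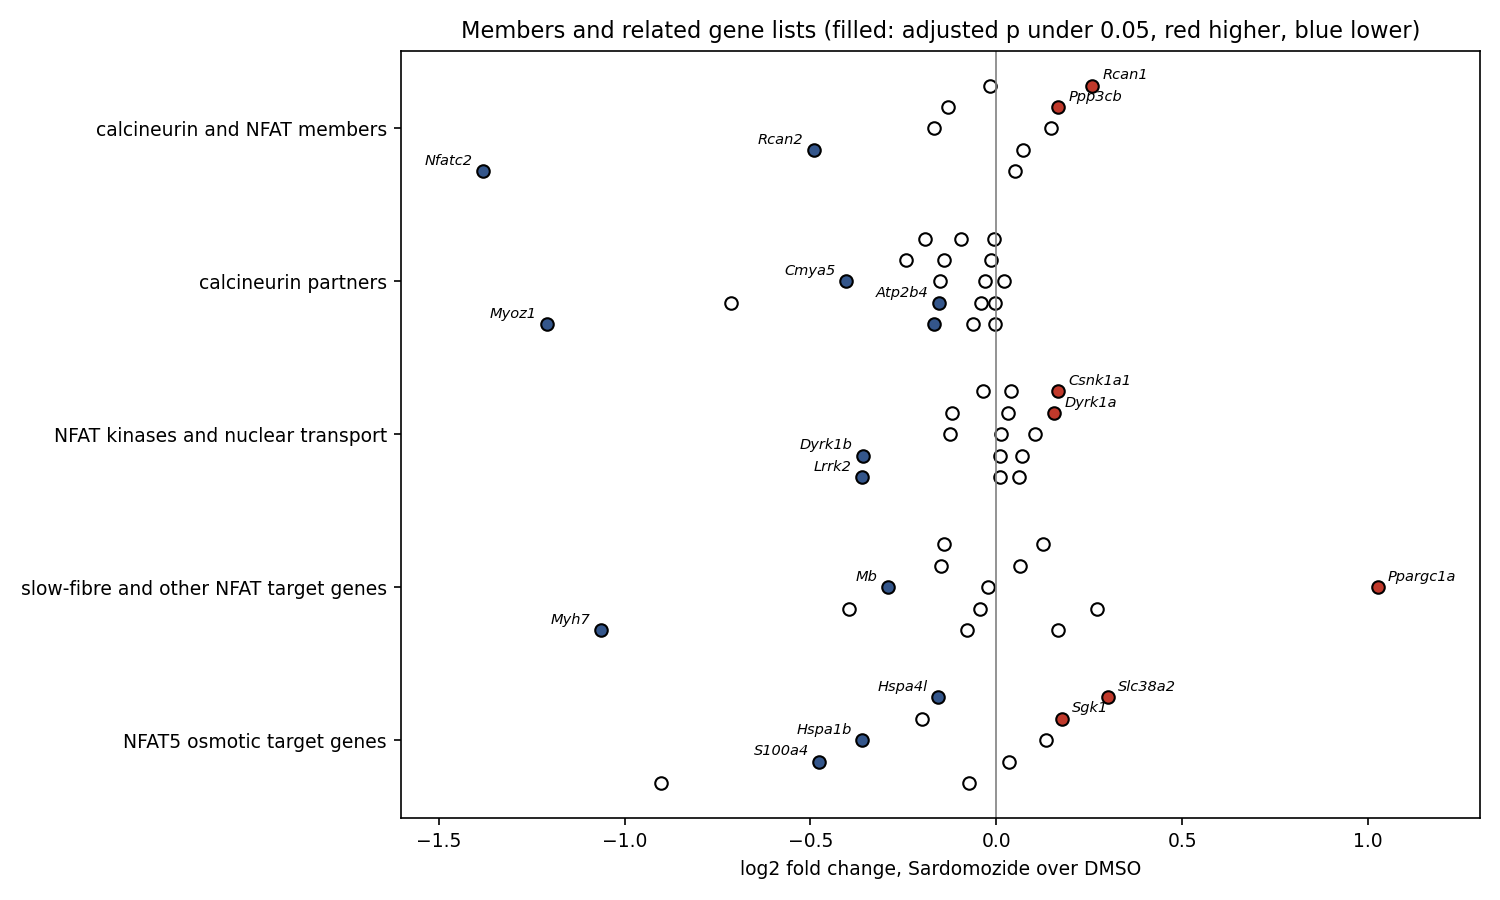
Log2 fold change (Sardomozide over DMSO, horizontal axis) of the 10 members and of each tested gene of the 4 related lists, with filled points, of which all but 1 are named, for an adjusted p under 0.05. Of 18 calcineurin partners 4 fell and 0 rose (22.2% called, against 16.3% of all genes tested). Nfatc2 and Myoz1 lay farthest to the left in their rows at −1.38 and −1.21.

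Genes whose profile over the 6 libraries lay closest to those of Nfatc2 and Rcan1 were sought among 10265 candidates (mean log2 CPM 2 or higher) by the root mean square difference of gene-centred log2 CPM. Closest to Nfatc2 were Colq (0.127), Ache (0.198), Hr (0.199), Myot (0.21) and Myh6 (0.213). Colq and Ache encode the anchor and the enzyme acetylcholinesterase of the neuromuscular junction, Hr a nuclear corepressor, Myot the Z-disc protein myotilin and Myh6 a cardiac-type myosin heavy chain. Their log2 fold changes lay between −1.26 for Colq and −1.11 for Hr. Closest to Rcan1 were Hcfc2 (0.0226), Zfp407 (0.024), Dock11 (0.0274), Med29 (0.0307) and Atm (0.036), with log2 fold changes from 0.21 for Med29 to 0.25 for Hcfc2. These genes were picked for likeness in the same libraries, so their differences between the groups are a description.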

How the data were processed

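Each library had a table of raw counts by gene symbol, deposited by the authors. The submitters' processing notes name the builds GRCm38 and mm10 and the tools STAR, StringTie and DESeq2. Versions, roles, annotation, strand setting and treatment of multiply matching reads were not given in the sources used here. Groups and replicate numbers came from the sample titles. Genes were filtered with filterByExpr (10 counts scaled to library size, 15 in total), scaled by TMM and compared with edgeR 4.0.16 (robust quasi-likelihood test, two-sided, treatment as the single term; R 4.3.3), with Benjamini-Hochberg adjustment over 13076 genes and calls at 0.05. Standard errors were derived from each fold change and its F statistic. CPM uses TMM-scaled library sizes, log2 CPM a prior count of 2, and CPM per kb the exon union length in GENCODE M21 (GRCm38). Replicate pairs had chi-square values per degree of freedom of 5.45 to 6.88 with DMSO and 9.06 to 16.1 with Sardomozide. None therefore agreed within sampling noise. The steps were tested on simulated counts.

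All members are named. From each list up to 6 called genes with the smallest adjusted p are named, with Ppp3cc, Rcan3, Calm2 and Calm3 added. One called gene of the calcineurin partners is counted but not reported here. For Nfatc2 and Rcan1 the 5 genes of nearest profile are named, leaving out predicted genes, clone names and pseudogenes. Myoz2, Gsk3a, Gsk3b, Tnni1, Tnnc1, Tnnt1, Myl2, Slc5a3, Slc6a6, Il4, Akr1b3, Homer2 and Chp2 fall outside that rule and were picked with their values in view. Intervals and floors cover counting error only. Members and lists were chosen with earlier results of these data known. Alternatives were RLE and no scaling factors, DESeq2 1.42.0, no filter, a stricter filter (1 CPM in 3 libraries), the replicate block, no robust estimation, the longest transcript as length, and leaving out each library.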

Additional observations from a re-analysis of the deposited data

How the results depend on the processing

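All members kept their direction under every setting run except Nfat5, whose log2 fold change ran from −0.0693 to 0.0201 with a library left out and was above 0 only without Sardomozide replicate 1. Rcan2 and Nfatc2 kept their side of the threshold in every fit, Rcan1 and Ppp3cb in every fit with all 6 libraries. Leaving out each library in turn gave 620 to 927 genes higher and 706 to 1025 lower (1030 and 1105 with all libraries), with the fewest without DMSO replicate 1. Without DMSO replicate 3 there were 672 higher. Leaving one out gave 1 to 2 members higher and 2 to 3 lower. Of the kinase and transport genes 1 to 2 were higher, of the slow-fibre and target genes 1 to 2 were higher and 1 to 3 lower, and of the NFAT5 targets 1 to 3 were higher. Without scaling factors, with DESeq2 and without a filter, 2 slow-fibre and target genes were higher, Tnnc1 being added. With DESeq2 and without a filter, 3 were lower, Myl2 being added.

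With the replicate block 855 genes were higher and 965 lower, and 1 slow-fibre and target gene was lower, Myh7 being lost. The members called were the same 4 as without it. Deviations of libraries with the same number had correlations of −0.023 to 0.022, which gave no sign of pairing. With 3 libraries per group such values cannot exclude it, and whether the libraries were paired is not stated. Sardomozide replicate 1 correlated equally with DMSO replicates 1 and 3, and no other library correlated best with its own number.

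With the longest transcript in place of the exon union, every level was higher because the length is shorter. In Sardomozide and DMSO libraries Ppp3r1 had 52.3 and 50.4 CPM per kb, Ppp3ca 33.6 and 32.0, Ppp3cb 34.5 and 30.8, Rcan1 16.7 and 13.99, Nfatc3 13.0 and 11.7, Nfat5 9.28 and 9.39, Rcan2 6.20 and 8.73, Nfatc1 6.77 and 7.61, Nfatc4 5.30 and 5.80, and Nfatc2 0.389 and 1.02. Nfatc3 then ranked above Nfat5, and in Sardomozide libraries Ppp3cb above Ppp3ca and Nfatc1 above Rcan2. Shares in Sardomozide and DMSO libraries became 26.7% and 29.1% for Nfatc1, 50.9% and 44.8% for Nfatc3, 20.9% and 22.2% for Nfatc4, 46.6% and 44.1% for Ppp3cb, 8.10% and 10.1% for Ppp3cc, 62.1% and 51.4% for Rcan1, and 14.8% and 16.7% for Rcan3. With Sardomozide, Ppp3ca had 45.3% and Rcan2 23.1%.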
